A study of Danio rerio with 50 samples.

Results

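In this comparison 10 clade C olfactory sensory neurons (OSNs) were set against the 9 clade A and 10 clade B OSNs of the same series, pooled. These 29 cells are the members of the comparison, out of 50 samples in all, of which 47 are single cells and 3 are bulk libraries. The clade of a cell is the homology clade of the odorant receptor (OR) it transcribes most. Membership was taken from the study's assignment of each numbered cell, so that OR genes define the groups and their levels are no finding. All cells came from 48 hpf zebrafish embryos of the Tu/TLF strain that carried the zOMP:RFP transgene, in which the promoter of the olfactory marker protein gene drives a red fluorescent protein. RFP-positive cells were therefore selected as mature OSNs in every group, and the clades differ in no treatment. The embryos of a sort were pooled, and no label ties a cell to an embryo.

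Cells carried either the Fluidigm or the ERCC spike-in RNAs, and this label divides them into 2 sets. The cells were captured in 2 runs of the C1 chip, but which set belonged to which run is not given in the sources used here, so the sets are called by their spike-in only. The Fluidigm set held 3 clade C, 5 clade A and 3 clade B cells, and the ERCC set held 7, 4 and 7. Raw counts were summed per clade and set into 6 sums for the test, because single cells are not replicates. With 2 sums per clade, p-values measure the spread between the sums of a clade. This spread mixes differences between the sets, which may be technical, with differences between the 3 to 7 cells of each sum. Total counts ranged from 6951519 to 21311434 per clade C cell and from 7130690 to 30192554 per clade A or B cell. The number of genes detected ranged from 5597 to 8861 and from 5472 to 8434.

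Some cells stood apart from their labels or from the others. The clade A cell s18930 had 55.5 CPM (counts of a gene per 1000000 counts of the cell) of its leading OR, or111-11, its 6 markers of mature ciliated OSNs summed to 2.76 CPM, and 20.8% of its counts fell on ribosomal protein genes. The clade B cell s23567 had 98.4 CPM of or115-12 but 13058 CPM of taar14h, a trace amine-associated receptor. In the clade B cell s20565 the 6 mature markers summed to 53.4 CPM. The clade B cell s18927 had 384 CPM of olfcg1, a receptor gene of another chemoreceptor family, beside its OR. The clade A cell s20599 and the clade C cell s23558 each held a pair of abundant ORs, and the leading OR of the clade C cell s18931 was at only 154 CPM. Where a result changed most without one of these cells, the value without it is given beside it.

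Each OSN of a vertebrate transcribes one OR from a large gene family, and neurons with the same OR send their axons to the same target in the olfactory bulb. In the zebrafish embryo the first targets are protoglomeruli, and the axons reach them under the control of guidance receptors such as Robo2, a receptor for Slit proteins, and the neuropilins, which bind class 3 semaphorins. The comparison asks which genes outside the OR family, and beyond the guidance genes that the study took to in situ hybridization, separate clade C neurons from the other OSNs.

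The clade C cells carried ORs of 6 subfamilies. The leading receptor was or129-1 in s20544 (3190 CPM), s23549 (3478 CPM) and s23572 (1161 CPM), or136-1 in s20595 (10106 CPM) and s23550 (787 CPM), and or133-2 in s23558 (2124 CPM) and s23571 (the second highest receptor level of clade C). The other cells had or130-1 (s18931, 154 CPM), or132-5 (s23559, 31243 CPM) and or134-1 (s23560, 763 CPM). Cell s23558 also had 1746 CPM of or129-1, so that this receptor reached 100 counts in 4 of the 10 clade C cells and in 0 of the 19 others. The share of OR counts held by the leading receptor had a median of 99.5% in clade C and of 99.6% in clades A and B.

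Markers of mature ciliated OSNs were present in all clade C cells, though not every marker in each. A clade C cell held 4 to 6 of the 6 markers at 100 counts, with all 6 only in s23572. A clade A or B cell held 0 to 6. The 6 genes gng13b, ompb, gnal, cnga4, ano2 and adcy3b summed to 1623 to 10033 CPM in clade C, with a median of 5924 CPM, and to a median of 5232 CPM in clades A and B. In the sums per clade and set cnga4 was at 63.1 and 47.5 CPM in clade C and at 335 to 663 CPM in the others. The ranges of the other markers overlapped. The 5 immature and progenitor markers summed to at most 9.62 CPM in a clade C cell and to at most 414 CPM, in s23547, in the others. gap43 reached 100 counts in 1 clade C cell, s23572, and gng8 did not exceed 0.0564 CPM. The 3 glial markers summed to at most 0.647 CPM in a clade C cell. Blood and lens markers had a median of 0 CPM in clade C and a highest sum of 560 CPM, in s20595. The crypt neuron marker s100z reached 100 counts in 2 of 10 clade C cells and in 8 of 19 others. Of the other markers of microvillous, crypt and terminal nerve cells, gnaia had 1650 counts in the clade C cell s20544. It had at most 22 counts in any other cell. trpc2b had 820 counts in the clade A cell s23563, 942 in the clade B cell s20565 and at most 2 in any other cell. ora4 and gnrh3 did not exceed 8 counts in any cell. epcam, an adhesion gene of epithelia, was present in both groups, with medians of 2365 and 1483 CPM. Other epithelial markers were high in a few cells only. cldni had 21367 counts in the clade C cell s23572 and at most 1 count in any other cell. krt4 had 46933 and 6620 counts in the clade A cells s20566 and s18930 and at most 40 counts elsewhere. krt8 had 632 counts in the clade C cell s23550, 14090 in s18930 and 1474 in the clade B cell s23555.

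Across the transcriptome 5623 genes reached 100 counts in 3 or more of the 29 cells. The quasi-likelihood test of edgeR, after Benjamini-Hochberg adjustment, called 1 of them, or129-1, which is 0.0178% of the genes tested. At an unadjusted p under 0.05 there were 310 genes, or 5.51%, of which 244 were higher and 66 lower in clade C. No gene outside the OR family passed the adjusted threshold, and the values below are descriptions unless a test is named. DESeq2 called 935 genes on the same sums (420 higher and 515 lower), and limma on the mean log2 values of the cells called 0 genes, with 154 at an unadjusted p under 0.05. On simulated sums that varied as much as the measured sums, the test found 0 of 200 genes with a 4-fold change and 3 of 200 with a 64-fold change. Large differences could thus be missed at this spread. Without s18930, s23567 and s18931 edgeR called 8 genes, all higher in clade C (or129-1, p4ha3, cbx6a, UIMC1, nedd1, pi4k2a, rrn3 and trpm7), and without s18931 alone it called 5. Without s20544 it called 2 genes, without s20595 it called 4, and when a whole sum was left out it called 0 or 1.

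Direction was read separately in each spike-in set as the difference of the mean log2(CPM + 1), clade C minus clades A and B. This scale understates the change of genes at low levels. A gene higher in clade C in both sets was seen in 1209 cases (21.5%), and a gene lower in both sets in 1593 cases (28.3%). Across the 5623 genes, which are not independent of each other, the differences in the sets had a Pearson correlation of 0.021. The 50 genes with the largest excess of clade C cells in the ERCC set were higher in clade C in the Fluidigm set in 23 cases, or 46%, while 44.8% of all tested genes were. The 50 genes with the largest deficit were lower in 27 cases, or 54%, beside 54.2% of all genes. In the opposite reading, from Fluidigm to ERCC, the counts were 22 of 50 (44%, beside 47.8%) and 30 of 50 (60%, beside 52.0%). With 25 genes in each direction the shares were 36% for high picks and 56% for low picks from the ERCC set, and 44% and 64% from the Fluidigm set.

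**Figure D1:**
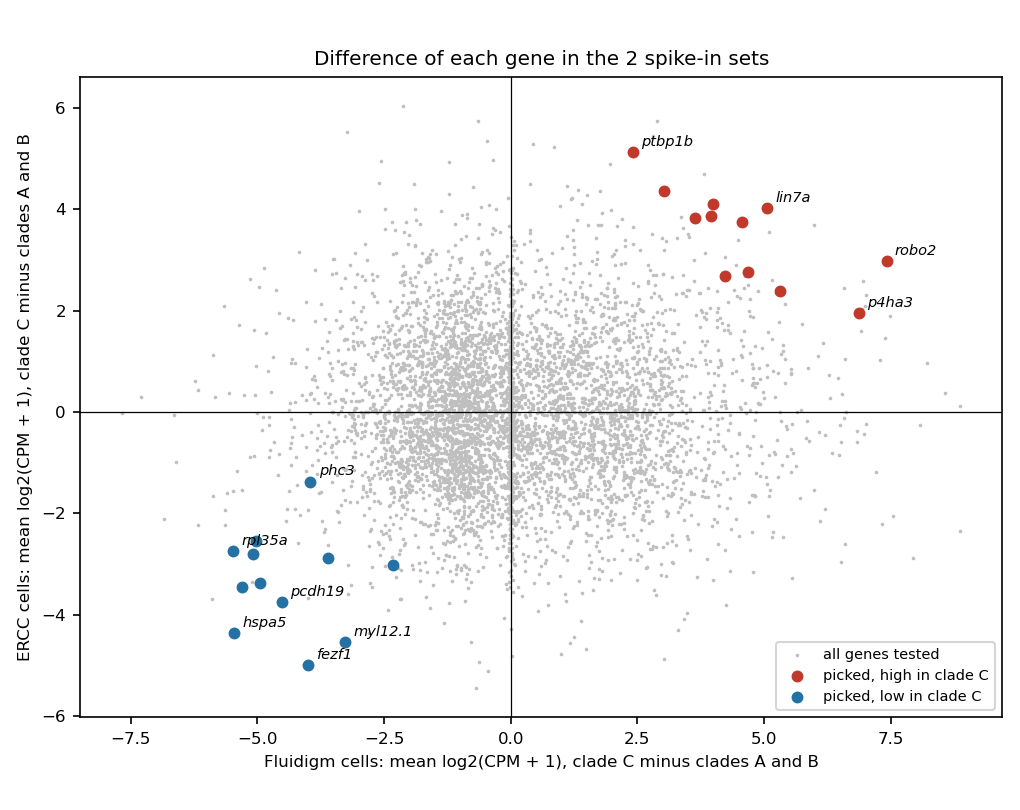
Difference of the mean log2(CPM + 1) between clade C and the pooled clade A and B cells in the Fluidigm set (horizontal axis, 3 against 8 cells) and in the ERCC set (vertical axis, 7 against 11 cells), with 1 point per gene tested. The 12 genes picked as high in clade C lie at the upper right and the 12 picked as low at the lower left, while the 5623 genes as a whole show no slope (Pearson correlation 0.021).

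To describe the genes that differed the same way in both sets, the 12 highest and 12 lowest non-receptor genes were taken by the weaker of their within-set differences in the share of cells with at least 100 counts. These differences chose the genes and are therefore no test. The weaker difference ran from 0.54 for lin7a to 0.42 for arf1 among the high genes, and the next gene outside the list, ppp1r15b, had 0.40. Among the low genes it ran from -0.50 for fezf1 to -0.38 for myl12.1, and ndufs6, just outside, also had -0.38. A clade C cell held 4 to 11 of the 12 high genes at 100 counts (median 8.5) and 0 to 5 of the 12 low genes (median 1). A clade A or B cell held 0 to 4 and 3 to 11 of them (medians 2 and 8). All 24 genes kept their direction in both sets without s18930, without s23567, without s20565 and without s18927. They also kept it without s20599 and s23558, without s18930, s23567 and s18931, and without the 4 cells of lowest total count. These alternatives were picked with the results already known. Since each gene was picked for a difference of the same sign in both sets, this outcome was nearly fixed and is no test.

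**Figure D2:**
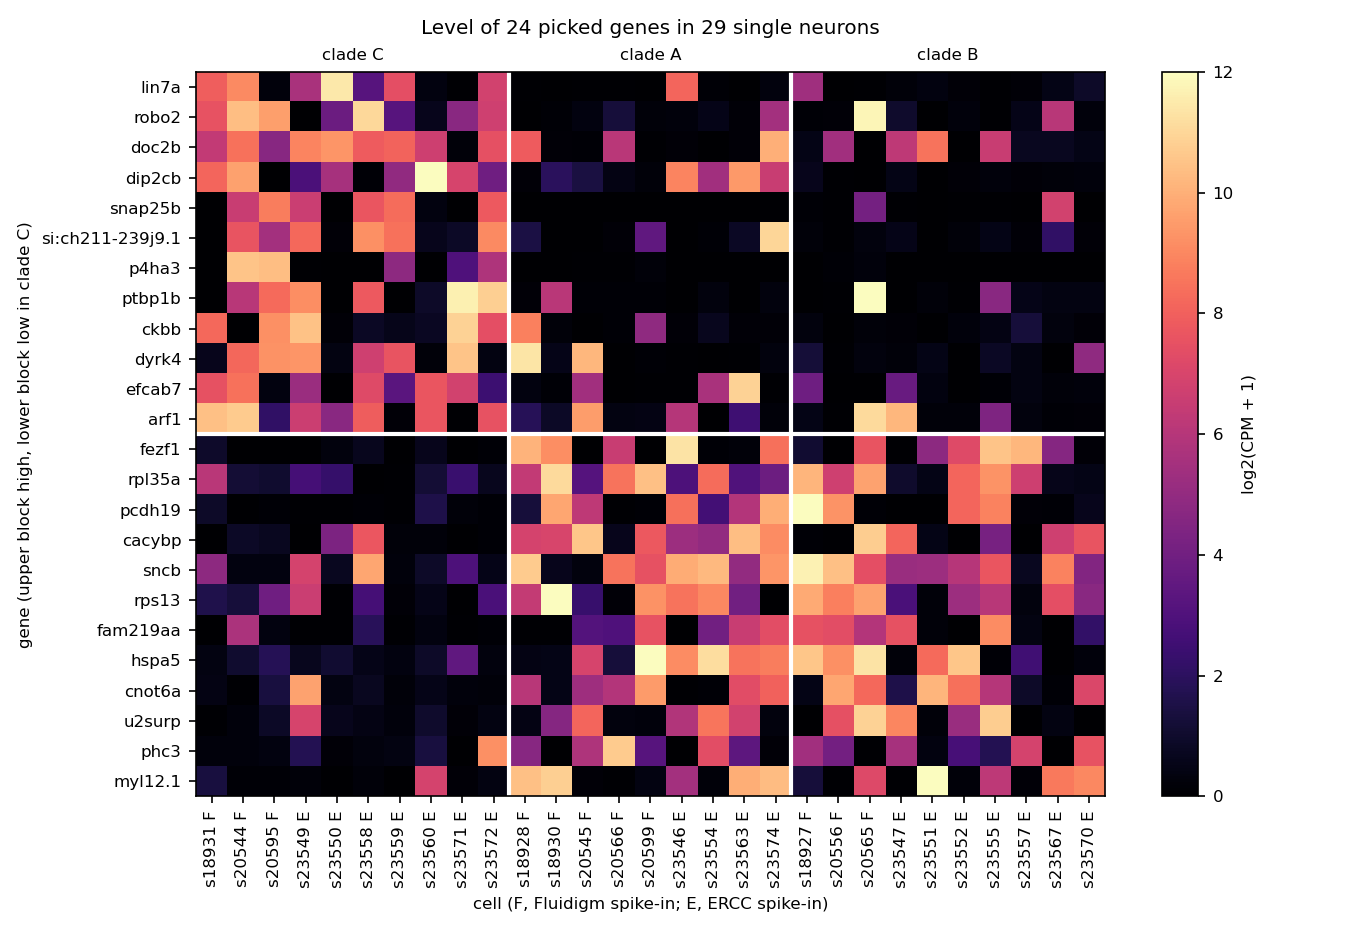
Levels of the 12 genes highest (upper block) and the 12 lowest (lower block) in clade C, as log2(CPM + 1) by colour, in each of the 29 cells. Columns are cells grouped by clade and spike-in set (F, Fluidigm and E, ERCC), and no gene of the upper block was high in all 10 clade C cells, while fezf1 and pcdh19 stayed at or below 2.01 CPM in every one of them.

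Among the high genes, snap25b and doc2b act in transmitter release and lin7a at synaptic and other junctions. Of 35 tested presynaptic release genes, 25.7% were higher and 22.9% lower in both sets, beside 21.5% and 28.3% of all genes. lin7a encodes a scaffold protein of synaptic and epithelial junctions. It reached 100 counts in 7 of 10 clade C cells (2 of 3 Fluidigm and 5 of 7 ERCC), in 1 clade A and in 1 clade B cell. Its lowest, median and highest levels were 0.0536, 80.8 and 2777 CPM in clade C and 0, 0.0767 and 276 CPM in the others. Only s23546 (276 CPM) and s18927 (39.8 CPM) of the clade A and B cells overlapped with the higher clade C cells. The log2 fold change between sums was 5.11 (standard error, SE, 3.11, adjusted p = 0.738 in edgeR).

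snap25b encodes a SNARE protein needed for fusion of synaptic vesicles. It was at 0, 92.6 and 431 CPM (lowest, median, highest) in clade C, where 6 of 10 cells reached 100 counts, and at 0, 0 and 113 CPM in clades A and B, where 2 of 19 did, both in clade B. Its paralog snap25a had the opposite tendency. At the level of single cells snap25a was detected at 100 counts in 4 of 10 clade C cells (0 of 3 Fluidigm, 4 of 7 ERCC) and in 14 of 19 others, with medians of 2.13 and 237 CPM. Reads of close paralogs can be shared between them, and how the counting split such reads is not known here. On the log2 scale the fold change was 9.07 (SE 4.34, adjusted p = 0.738 in edgeR) for snap25b and -1.85 (2.07, adjusted p = 0.892) for snap25a.

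doc2b, a calcium sensor of spontaneous and asynchronous release in mammals, reached 100 counts in 9 of 10 clade C cells, the most of any of the 24 genes. So did 3 clade A and 4 clade B cells. The lowest, median and highest values were 0.161, 203 and 645 CPM in clade C and 0, 0.427 and 1045 CPM in the others, so that the range of clade C lay within that of the others. The single low clade C cell was s23571. The log2 fold change between sums was 1.72 (SE 2.97, adjusted p = 0.969 in edgeR).

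Among guidance receptors, robo2 was in the same group of genes. It reached 100 counts in 8 of 10 clade C cells (80%, exact 95% interval 44.4 to 97.5%, counting error only) and in 3 of 19 others (15.8%, 3.38 to 39.6%). robo2 was picked by its difference in these shares and cells are not replicates, so the intervals are no test. The 3 Fluidigm cells of clade C had 188, 1319 and 771 CPM, and the 7 ERCC cells had between 0 and 2098 CPM. The highest level of all 29 cells was nevertheless in a clade B cell, s20565, at 3563 CPM. The second highest clade A or B cell had 65.3 CPM. In edgeR the log2 fold change was 3.40 (SE 1.82, adjusted p = 0.738 in edgeR), against clade B alone it was -0.26, and without s20565 it was 7.23.

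The neuropilin genes nrp1a and nrp2b were lower in clade C in both sets, while nrp1b was not. nrp1a did not exceed 0.719 CPM in any clade C cell, whereas it reached 100 counts in 5 of 9 clade A and 2 of 10 clade B cells, with a highest level of 2848 CPM. nrp2b, a gene of the same family, did not exceed 0.982 CPM in clade C and reached 100 counts in 3 clade A and 4 clade B cells, with a highest level of 3037 CPM. Each of these genes thus reached 100 counts in 0 of 10 clade C cells, which allows a share of up to 30%. The medians of the clade A and B cells were nevertheless low, at 0.641 CPM for nrp1a and 0.575 CPM for nrp2b, so that most of these cells overlapped with clade C. On the log2 scale the fold change was -8.79 (SE 4.08, adjusted p = 0.738 in edgeR) and -9.71 (3.43, adjusted p = 0.738). nrp1b, a paralog of nrp1a and one of the genes taken to in situ hybridization, reached 100 counts in the clade C cells s18931 (452 CPM) and s23558 (55.9 CPM) and in the clade A cells s23554 (95.8 CPM) and s23574 (69.9 CPM). Its mean log2 level differed by 2.83 in the Fluidigm set and by -0.094 in the ERCC set, and the sums differed by 6.93 on the log2 scale (SE 4.08, adjusted p = 0.738 in edgeR).

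p4ha3 encodes a subunit of prolyl 4-hydroxylase, the enzyme that modifies collagen chains in the endoplasmic reticulum. It was the high gene with the least background. Its counts reached 100 in 5 of 10 clade C cells and in 0 of 19 others, which allows a share of up to 15.8% of the latter, and the highest clade A or B cell had 0.203 CPM. The clade C cells s20544 and s20595 had 1489 and 1321 CPM. s23572, s23559 and s23571 followed with 54.7, 27.7 and 6.91 CPM, and the other 5 clade C cells had at most 0.0481 CPM, within the range of clades A and B. In the sums the level was 951 and 12.6 CPM in clade C and 0 to 0.112 CPM in the other clades. The fitted log2 fold change of 13.68 (SE 3.69, adjusted p = 0.226 in edgeR) depends on the prior count, since these sums are near 0, and is no bound. Without s18931 the adjusted p was 0.0178 in edgeR, but s18931 had 0 counts of p4ha3, so leaving it out removed a clade C cell without the gene. DESeq2, which called 935 genes on the same sums, gave an adjusted p of 6.14e-06. p4ha3 was picked by its difference in these same cells, so neither value is independent support. p4ha3 was not detected at 100 counts in any of the 18 cells that carried no clade. By the study's account the cells outside its clades were immature, or mature without appreciable OR transcripts.

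The other high genes have diverse roles. dip2cb, a member of the disco-interacting protein family, reached 100 counts in 8 of 10 clade C, 4 of 9 clade A and 0 of 10 clade B cells, so that its difference was larger against clade B (5.25 on the log2 scale of cell means) than against clade A (1.64). ptbp1b, a splicing repressor of neuronal exons in mammals, had a median of 143 CPM in clade C and of 0.105 CPM in the others, but again the highest cell was s20565 of clade B, at 4802 CPM, and its log2 fold change went from 2.24 to 6.64 without that cell. ckbb, a brain-type creatine kinase, reached 100 counts in 5 clade C cells and in 2 clade A cells, with a median of 86.4 against 0.152 CPM. The kinase gene dyrk4 had 6 of 10 against 3 of 19 cells, efcab7, a ciliary gene in mammals, 7 of 10 against 5 of 19, and arf1, a small GTPase of Golgi transport, 7 of 10 against 5 of 19. The gene si:ch211-239j9.1, known only by its clone name, reached 100 counts in 6 clade C and 2 clade A cells, and the highest of the 29 levels, 2024 CPM, was in the clade A cell s23574. In the sums these 7 genes had log2 fold changes between 1.89 and 7.08, with adjusted p between 0.738 and 0.895 in edgeR. Clade A and B cells overlapped with the clade C range in each of them. The fold change of arf1 was -1.61 without the Fluidigm sum of clade C, and those of si:ch211-239j9.1, dyrk4 and efcab7 were -0.35, -0.088 and -0.35 against clade A alone.

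At the other end stood fezf1, a zinc finger transcription factor that is required for olfactory axon development in mice. It did not exceed 0.921 CPM in the 10 clade C cells, and their median was 0.0376 CPM. It reached 100 counts in 11 of 19 other cells (57.9%, exact 95% interval 33.5 to 79.7%, counting error only), 5 of clade A and 6 of clade B, and in both sets (4 of 8 Fluidigm and 7 of 11 ERCC cells). The lowest, median and highest levels there were 0, 26.8 and 2535 CPM. fezf1 was picked by its difference in share of cells, and cells are not replicates, so its interval is no test. The clade A and B cells fell into some with high and some with no fezf1, and only the latter overlapped with clade C. The log2 fold change between sums was -10.26 (SE 4.36, adjusted p = 0.738 in edgeR).

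pcdh19, a protocadherin that mediates homophilic cell adhesion, showed the same pattern. Its highest clade C level was 2.01 CPM, in s23560, while 5 of 9 clade A and 4 of 10 clade B cells reached 100 counts and the highest of them had 4015 CPM. Another protocadherin, pcdh11, was on the opposite side. It was at 0.0924, 400 and 3327 CPM (lowest, median, highest) in clade C and at 0, 0.389 and 763 CPM in the others, and 3 clade A cells and 0 clade B cells reached 100 counts. On the log2 scale the fold change was -10.65 (SE 3.62, adjusted p = 0.738 in edgeR) for pcdh19 and 7.62 (2.24, adjusted p = 0.410) for pcdh11. pcdh11 and robo2 are among the genes that the study took to in situ hybridization.

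hspa5, which encodes BiP, the main chaperone of the endoplasmic reticulum, had the smallest p among the low genes. In clade C its lowest, median and highest levels were 0.225, 0.744 and 10.1 CPM. In clades A and B they were 0, 312 and 4192 CPM, with 11 of 19 cells at 100 counts, 6 of clade A and 5 of clade B. The only clade C cell at 100 counts was s23571, at 10.1 CPM. The difference of mean log2 levels was -5.46 in the Fluidigm and -4.37 in the ERCC set, and the log2 fold change between sums was -9.17 (SE 2.65, adjusted p = 0.374 in edgeR). BiP is a target of the unfolded protein response, in which chaperones are induced when proteins misfold. Of 26 tested genes of that response, 8 were higher (30.8%) and 5 lower (19.2%) in clade C in both sets, beside 21.5% and 28.3% of all genes. Without s18930, s23567 and s18931, 8 were lower. None of the 26 passed the adjusted threshold in edgeR, and a change of the response was not tested. eif2ak3, the sensor kinase PERK, was on the high side with 5 of 10 clade C cells at 100 counts and 1 of 19 others. manf, a secreted factor of the same compartment, was on the low side with 2 of 10 and 10 of 19.

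**Figure D3:**
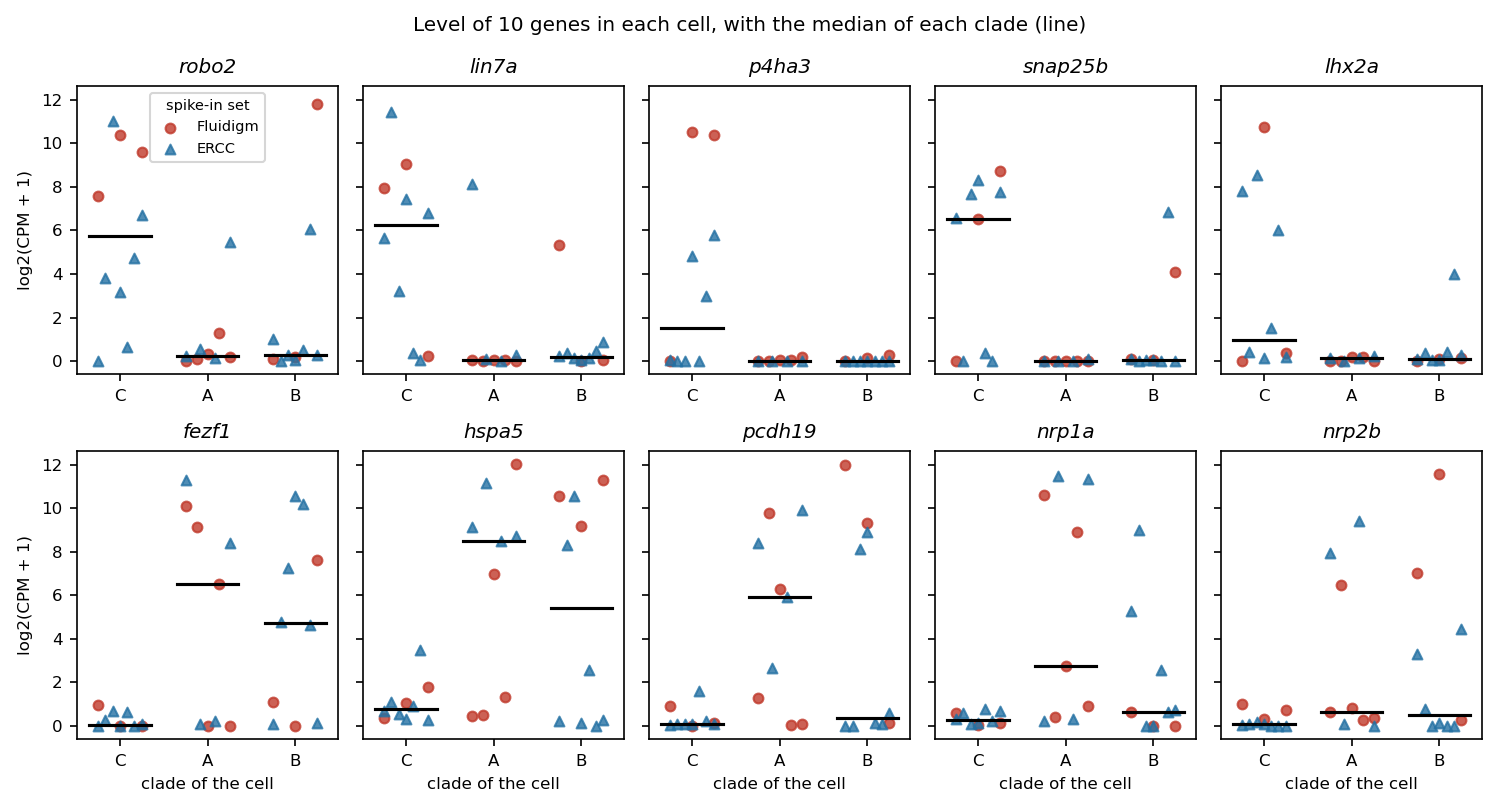
Levels of 10 genes in each cell as log2(CPM + 1) (vertical axis) by clade (horizontal axis), with circles for the Fluidigm set, triangles for the ERCC set and a line at the median of the clade. The upper row holds robo2, lin7a, p4ha3, snap25b and lhx2a, for which the highest clade A or B cell has 3563, 276, 0.203, 113 and 15.04 CPM, and the lower row holds fezf1, hspa5, pcdh19, nrp1a and nrp2b, for which the clade C cells stay at or below 10.1 CPM.

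The rest of the low genes had varied roles, and each overlapped between the groups. sncb, a synuclein of presynaptic terminals, was at a median of 0.770 CPM in clade C and of 181 CPM in clades A and B, although s23558 and s23549 of clade C had 885 and 118 CPM. It was detected at 100 counts in 16 of 19 clade A and B cells, the most of the 12 low genes. cacybp, a calcyclin-binding protein, had 2 of 10 against 13 of 19 cells, and fam219aa, of unknown role, 1 of 10 against 11 of 19. cnot6a, a deadenylase of mRNA decay, reached 100 counts in 1 of 10 against 12 of 19 cells, u2surp, a splicing factor, in 1 against 10, phc3, a Polycomb subunit, in 1 against 12, and myl12.1, a regulatory light chain of myosin, in 1 against 10. The single clade C cell was s23549 for cnot6a (825 CPM) and u2surp (122 CPM), s23572 for phc3 (597 CPM) and s23560 for myl12.1 (120 CPM). In the sums the log2 fold change of these 7 genes ran from -6.61 to -1.31, with adjusted p between 0.738 and 0.987 in edgeR.

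The study's text names 15 marker genes for clade C, of which 14 passed the filter and zbtb11, with 1 cell at 100 counts, did not. Among guidance candidates the text also names robo2, nrp1b and lrp1ab as higher in clade C. They are not among the 15, nrp1b was not higher in both sets, and lrp1ab is not described here. All 14 marker genes past the filter were higher in clade C in both sets, beside 21.5% of all genes. In edgeR 9 had an unadjusted p under 0.05, beside 5.51% of all genes. These genes were chosen on the same cells, so that their direction is no independent evidence, and lin7a, dip2cb, snap25b, si:ch211-239j9.1 and p4ha3, described above, are among them. Their values show in how few cells each was found. CAMKK2, a calmodulin-dependent kinase kinase, reached 100 counts in 4 clade C cells (489, 372, 54.1 and 7.54 CPM) and did not exceed 0.320 CPM in clades A and B. lrrc4bb, a synaptic adhesion gene, also reached it in 4 clade C cells, up to 2007 CPM in s23560, and did not exceed 0.219 CPM elsewhere. sphk2, a kinase that makes sphingosine-1-phosphate, had 5 clade C cells, up to 1363 CPM in s23572, and at most 2.99 CPM elsewhere.

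anxa1a, a calcium-dependent phospholipid-binding protein, had a median of 683 CPM in clade C against 0.297 CPM in the others. It reached 100 counts in 7 of 10 clade C cells, 4 of 9 clade A cells and 1 of 10 clade B cells, and the sums differed by 5.50 on the log2 scale (SE 2.25, adjusted p = 0.738 in edgeR). In the Fluidigm set only 1 of 3 clade C cells, s20544 at 1271 CPM, reached it. smarcd1, a subunit of the SWI/SNF chromatin remodelling complex, likewise had 7 of 7 ERCC but 1 of 3 Fluidigm clade C cells, and eif2ak3 had 5 of 7 and 0 of 3. wu:fb59d01, with no described role, was found in 4 of 10 clade C and 1 of 19 other cells.

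Among 17 tested homeobox and related regulators, 6 were higher (35.3%) and 5 lower (29.4%) in clade C in both sets, beside 21.5% and 28.3% of all genes. lhx2a, a LIM homeobox gene whose mouse relative Lhx2 is required for OR gene expression, reached 100 counts in s20544 (1700 CPM), s23558 (379 CPM), s23549 (224 CPM) and s23571 (64.6 CPM). In clades A and B its highest level was 15.04 CPM and the second highest 0.331 CPM. Of the 4 lhx2a cells, 3 were or129-1 cells. pbx1a, a TALE homeobox gene, reached 100 counts in 6 of 10 clade C and 3 of 19 other cells. Its highest levels were 6178, 2862 and 2108 CPM in clade C and 442 CPM in the others. The log2 fold changes were 11.03 (SE 3.63) for lhx2a and 5.87 (2.36) for pbx1a, each with an adjusted p of 0.738 in edgeR. The paralog lhx2b was found in 5 of 10 and 4 of 19 cells.

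The clade C cells did not share 1 fixed set of high genes. The 4 cells with or129-1 had 2138 to 2190 genes at 100 counts, and the 6 others had 1022 to 1876. A fixed cut at 100 counts thus finds more genes of any kind in the former, and a link to the receptor was not tested. lin7a, doc2b, snap25b, si:ch211-239j9.1, ptbp1b, arf1, anxa1a and pcdh11 reached 100 counts in all 4 cells with or129-1, and are listed for that reason. In the 6 clade C cells with other receptors these genes did so in 3, 5, 2, 2, 2, 3, 3 and 2 cells. Conversely cacna1aa, a voltage-gated calcium channel, was found in 1 of the 4 or129-1 cells and in 4 of the 6 others. p4ha3, robo2 and dip2cb were split between both kinds of cell, with 2, 3 and 3 of the 4 and 3, 5 and 5 of the 6. fezf1, pcdh19, nrp1a and nrp2b reached 100 counts in 0 of the 4 and 0 of the 6. s23560 and s23550 held the fewest of the 12 high genes, 4 and 5, and s20544 held 11. s23560 also had the lowest total of the clade C cells.

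Gene lists were compared by the share of tested members with one direction in both sets, beside 21.5% higher and 28.3% lower over all genes. Some members passed the filter only through the group where they are high, so their direction is no evidence. Such members include CAMKK2, sphk2 and lrrc4bb, with 0 of 19 clade A and B cells at 100 counts. Others include nrp1a, nrp2b, pcdh19, fzd3a, foxg1a, rims2b, chd5 and dnajc5ga, with 0 of 10 clade C cells. They were not taken out of the counts of the lists. A median log2 fold change of 0.33 over all genes is the reference for the medians below. The guidance receptors, which receive semaphorin, slit, netrin and ephrin signals, had 3 of 13 members higher (plxnb2a, plxnb3 and robo2) and 6 lower (epha3, epha6, nrp1a, nrp2b, plxna3 and robo3), with a median of -0.93. None of the 13 passed the adjusted threshold, and nrp1a and nrp2b had an unadjusted p under 0.05 in edgeR, as did 5.51% of all genes. epha3, an ephrin receptor, was found at 100 counts in 2 of 10 clade C cells, 2 of 9 clade A and 6 of 10 clade B cells. plxnb2a, a semaphorin receptor, was found in 4 of 10 and 4 of 19 cells and reached 1746 CPM in clade C against 92.0 CPM elsewhere. Of 13 guidance ligands 2 were higher and 4 lower, or 7 lower without s18930, s23567 and s18931.

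Of 10 Wnt and related receptors 1 was higher and 4 were lower, and fzd3a, a Frizzled receptor, reached 100 counts in 0 of 10 clade C and 6 of 19 other cells. Of 8 tested cadherins and protocadherins 1 was higher and 4 were lower (2 and 3 without s18930), with cdh1, the epithelial cadherin, at 6 of 10 and 15 of 19 cells. Synaptic and axonal adhesion genes were split, with 9 of 26 members higher and 9 lower. In edgeR 6 of the 26 had an unadjusted p under 0.05, all higher in clade C. Of all genes tested 5.51% had such a p, 244 of them higher and 66 lower. The synaptic adhesion gene lrrc4bb, named by the study on these cells, reached 100 counts in 4 of 10 clade C and 0 of 19 other cells. Its direction is thus no evidence, and a difference of the adhesion list from all genes was not tested. Presynaptic release genes had 9 of 35 higher and 8 lower. The vesicular glutamate transporter gene slc17a6b was among the former, with 4 of 10 and 1 of 19 cells.

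**Figure D4:**
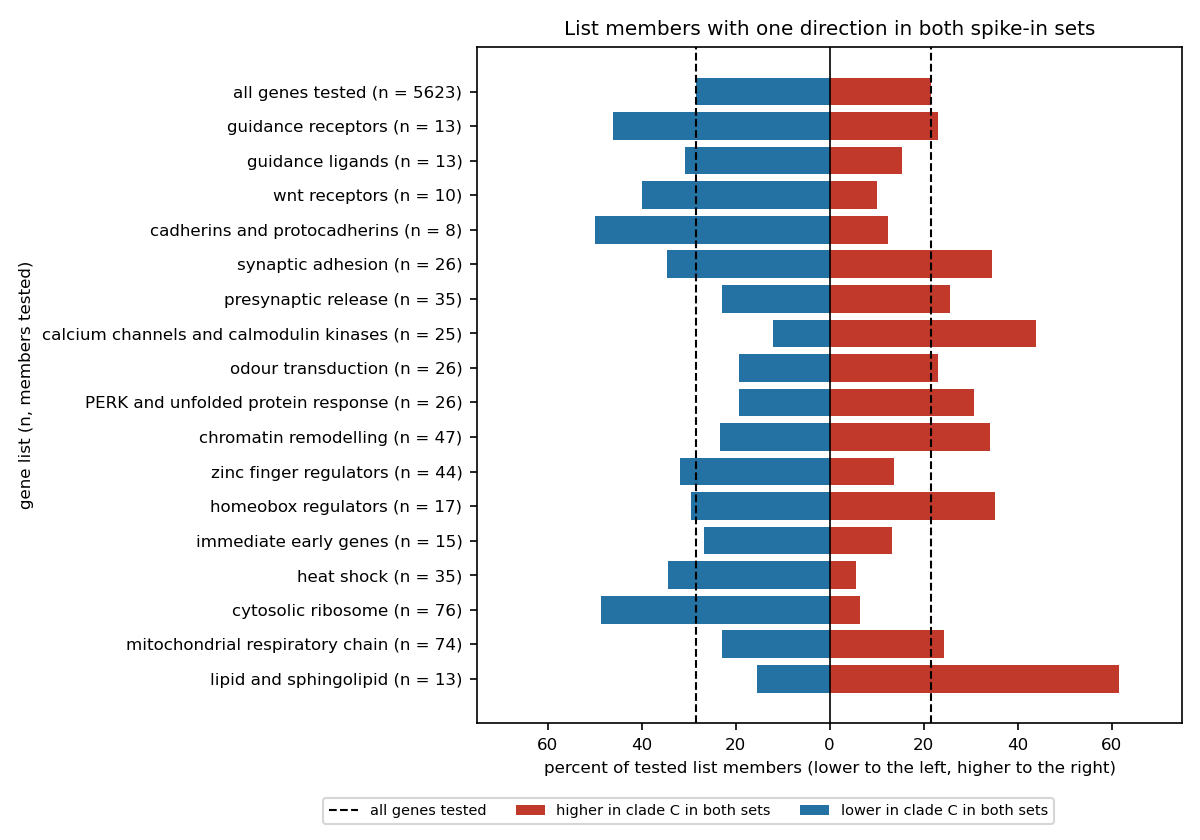
Percent of the tested members of each gene list that were higher (bars to the right) or lower (bars to the left) in clade C in both spike-in sets, with the number tested beside the name and dashed lines at the shares of all 5623 genes, 21.5% and 28.3%. Ribosomal protein and heat shock genes have few members on the right (6.58% and 5.71%), and the calcium list, which includes calmodulins, and the lipid list have few on the left (12% and 15.4%).

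The lists of calcium and lipid genes had 44% and 61.5% of their members higher. The calcium list held 25 tested genes of calcium channels, calmodulins, calmodulin-dependent kinases and their regulators, of which 11 were higher and 3 lower (5 lower without s20599 and s23558). Their median log2 fold change was only 0.17, and 3 had an unadjusted p under 0.05 in edgeR, beside 5.51% of all genes. The 11 were the channel gene cacna1aa, the kinase genes CAMKK2, camk1a, camk1gb, camk2d2 and camk2g1, the calmodulin genes calm1a, calm1b, calm2b and calm3a, and camk2n1a, a kinase inhibitor. Their direction is that of mean log2 levels of cells, and summed levels can go the other way. For camk2g1 the clade C sums were 346 CPM (Fluidigm) and 519 CPM (ERCC). Those of clade A were 521 and 2468 CPM, and those of clade B 1355 and 500 CPM. cacna1aa reached 100 counts in 5 of 10 clade C and 2 of 19 other cells, with highest levels of 1260 and 48.6 CPM. Without the 4 cells of lowest total count the number higher was 7 of 25. Of 13 lipid genes, which are sphingolipid enzymes, their receptors and annexins, 8 were higher and 2 lower (1 lower without s20565), with a median of 1.54. cers3b, a ceramide synthase, had 7 of 10 against 7 of 19 cells, and anxa5b, a second annexin, was found in all 10 clade C cells and in 16 of 19 others, with medians of 765 and 260 CPM. anxa1a and sphk2 of this list and CAMKK2 of the calcium list were named by the study on these cells.

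Chromatin remodelling genes had 16 of 47 members higher and 11 lower, but 13 and 13 without the 4 cells of lowest total count. cbx6a, a Polycomb subunit, differed between the sums by 7.92 on the log2 scale (SE 2.73, adjusted p = 0.738 in edgeR). This rested on 4 clade C cells with up to 2508 CPM. Clade A also held it, with 5210 counts in s18930 and 100 in s23554. The setting in which cbx6a was called left out s18930 and s18931, a clade C cell with 2 counts. chd5, a neuronal nucleosome remodeller, reached 100 counts in 0 of 10 and 5 of 19 cells. Zinc finger regulators had 6 of 44 members higher and 14 lower (31.8%), but 9 lower (20.5%) without s23567. Odour transduction genes, which turn receptor binding into a current, had 6 of 26 higher and 5 lower, but 9 were lower without s18930 and 8 without s20599 and s23558. Nuclear genes of the respiratory chain had 18 of 74 higher and 17 lower, beside 21.5% and 28.3% of all genes.

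Heat shock and ribosomal protein genes had few members that were higher in clade C. Of 35 tested chaperone genes 2 were higher (1 without s18927) and 12 lower in both sets. The counts of the whole list took a median of 24756 CPM in the Fluidigm clade C cells against 46028 CPM in the other Fluidigm cells, and 14412 against 23155 CPM in the ERCC cells. By clade the medians were 17425 CPM in C, 41144 CPM in A and 22028 CPM in B. The cells overlapped widely, since clade C cells ranged from 7621 to 56882 CPM and the others from 8797 to 60877 CPM. dnajc5ga, a cysteine string protein gene, reached 100 counts in 0 of 10 and 7 of 19 cells. Immediate early genes, which respond to activity and to dissociation, had 2 of 15 members higher and 4 lower (1 lower without the 4 cells of lowest total count), and their summed level had a median of 3659 CPM in clade C, 3802 CPM in clade B and 7764 CPM in clade A. The part of the immediate early genes' difference in the other results was not tested.

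Of 76 tested ribosomal protein genes 5 were higher and 37 lower in clade C in both sets, or 6.58% and 48.7%. The difference was seen mainly in the Fluidigm set, where the median over the list was -2.15 on the log2 scale. In the ERCC set it was -0.05, equal to that of all genes. Without the 4 cells of lowest total count the ERCC median was -0.55, beside -0.14 over all genes. In that setting 4 members were higher and 40 lower in both sets. The 3 Fluidigm clade C cells had 0.956, 1.02 and 1.58% of their counts on these genes. The 3 Fluidigm clade B cells had 2.28 to 2.66%, and the 5 Fluidigm clade A cells 0.939 to 20.8%, the last value in s18930. Without s18930 the median in the Fluidigm set was -1.46, and 8 members were higher and 32 lower. In the ERCC set the shares were 0.542 to 1.48% in clade C and 0.152 to 1.93% in the others. rpl35a reached 100 counts in 2 of 10 clade C cells and 15 of 19 others, rps13 in 2 and 14, and rpsa in 3 and 15, whereas rplp1 was found in all 10 clade C cells and in 13 of 19 others. On the log2 scale the fold change was -5.07 (SE 2.12, adjusted p = 0.738 in edgeR) for rpsa and -5.65 (2.83, adjusted p = 0.738) for rps13.

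**Figure D5:**
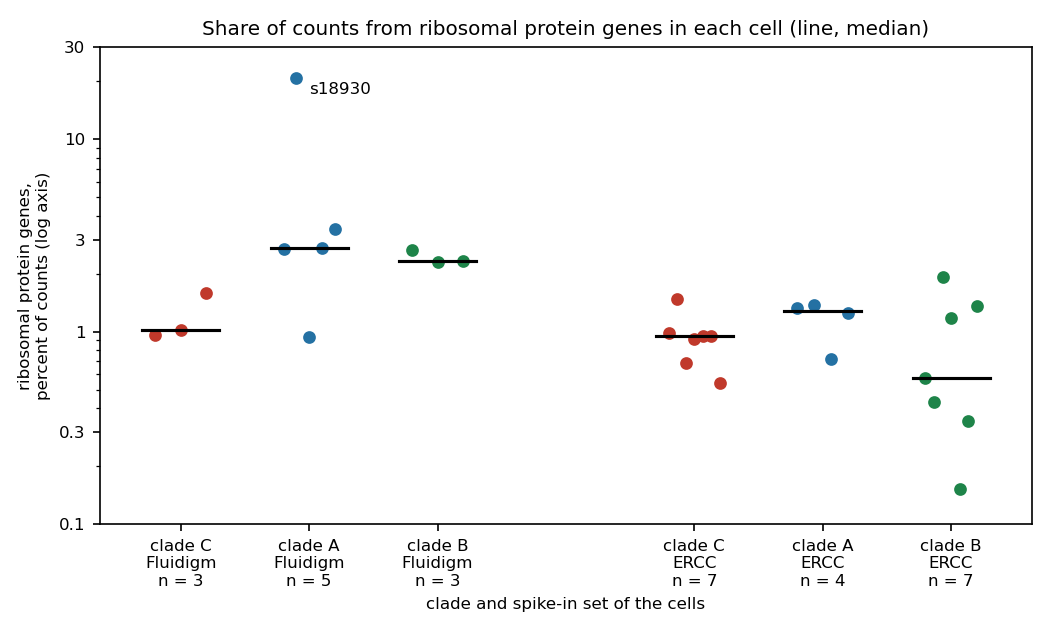
Percent of the counts of each cell that fell on ribosomal protein genes (vertical axis, logarithmic) by clade and spike-in set, with a line at the median. The 3 clade C cells of the Fluidigm set lie between 0.956 and 1.58%, below all other Fluidigm cells but 1, s18930 lies at 20.8%, and in the ERCC set the clade C cells (0.542 to 1.48%) lie within the range of the others.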

How the data were processed

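Single OSNs were sorted by FACS, captured on Fluidigm C1 chips, amplified with SMARTer chemistry and sequenced after Nextera tagmentation. The authors deposited raw counts per gene, made from reads aligned to GRCz10 with STAR. The study's methods name VERSE as the counter, while the submitters' processing notes list CASAVA 1.8.2, STAR and HTSeq. Counting was not stated to use strand, so reads of overlapping genes cannot be told apart. CPM was computed here from the deposited counts, and 0 per-sample columns were left unused. No pair of cells had identical counts (0 pairs).

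Counts were summed per clade and spike-in set, and clade C was tested against the mean of clades A and B by the quasi-likelihood test of edgeR 4.0.16 (R 4.3.3, TMM factors, Benjamini-Hochberg threshold 0.05), keeping genes that reached 100 counts in 3 or more of the 29 cells. Alternatives were run with limma 3.58.1 and DESeq2 1.42.0. Direction was read as mean log2(CPM + 1) within each set. The edgeR test was tested on simulated data. The labels do not tie a spike-in set to one of the capture runs. Intervals and floors (3 counts of the total) cover counting error only.

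Genes named were those past the threshold, and the 12 highest and 12 lowest by the weaker within-set difference in share of cells with 100 counts (ties broken by log2 difference). Also named were the marker genes the study gives for clade C, its 4 in situ genes, and list members at 100 counts in at least 5 cells. Genes outside this rule were named after their values were seen. The members and the 26 lists were chosen with earlier results of these data known, and some pattern matches that only shared a name were removed after the table was seen.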

Additional observations from a re-analysis of the deposited data

Results flagged for a closer look

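Within clades, 23 of 87 groups of values had a cell far from the others, by a rule whose chance rate of about 1 in 20 holds for normally distributed values, which these skewed levels are not. In clade C, s23549 held 5 of the 12 low genes at 100 counts (next 2), with 825 CPM of cnot6a and 122 CPM of u2surp. The other clade C cells far from the rest were s23571 for doc2b (0.161 CPM) and hspa5 (10.1 CPM), s18931 for rpl35a (68.0 CPM), s20544 for fam219aa (50.3 CPM), s23572 for phc3 (597 CPM) and s23560 for myl12.1 (120 CPM).

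In clade A, s18930 had 20.8% of its counts on ribosomal protein genes and 68.5 CPM of ptbp1b. s23546 had 276 CPM of lin7a, and s23574 had 43.6 CPM of robo2, 2024 CPM of si:ch211-239j9.1 and 0.054 CPM of snap25b, where the other clade A cells were at 0. s20599 had 0.155 CPM of p4ha3.

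In clade B, s20565 had 3563 CPM of robo2, 4802 CPM of ptbp1b and 0.203 CPM of p4ha3. s18927 had 39.8 CPM of lin7a, s23567 had 3.34 CPM of si:ch211-239j9.1, s23557 had 1.43 CPM of ckbb and s23570 had 28.8 CPM of dyrk4.

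In the 18 cells with no clade, which entered no comparison, 11 of the 12 high and 12 of the 12 low genes reached 100 counts in at least 1 cell.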

How the results depend on the processing

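The count of 1 gene called by edgeR was 5 with a filter of 10 counts and 5 with no filter, 935 in DESeq2, 0 in limma, 0 against clade A alone, 0 against clade B alone and 8 without s18930, s23567 and s18931. With either filter the called genes were or129-1, or132-5, or133-2, or136-1 and a gene outside the OR family. That gene was BX957318.1 with the filter of 10 counts and cspg5b with no filter. ORs define the groups, so their calls are no finding. The count of called genes ranged from 0 to 5 when 1 sum or 1 cell was left out. or129-1, an OR of the clade C cells, was called in 30 of these 35 cases. The replicate block (spike-in set) gave 1 called gene and changed no call. The pairing by set is not established, since the deviations of same-set sums correlated by 0.0844, 0.0945 and 0.117 between clades. The causes were not tested.

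Among alternatives chosen after seeing the data, ribosomal genes higher in both sets went from 5 to 8 without s18930 and to 12 without s18930, s23567 and s18931. Without the 4 cells of lowest total count, ribosomal genes higher in both sets went from 5 to 4 and calcium genes from 11 to 7.

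Of 2773 values of 59 named genes under alternatives, 2723 kept direction and side of the threshold and 9 turned direction. In 35 of the 47 alternatives only 1 sum or 1 cell was left out. No gene outside the OR family passed the threshold in the main test, so keeping that side says little about reproducibility. Against clade B alone the log2 fold change was -0.26 for robo2, -1.26 for ptbp1b and 0.10 for phc3. Against clade A alone it was -0.35 for si:ch211-239j9.1, -0.088 for dyrk4 and -0.35 for efcab7. Leaving out 1 sum or 1 cell gave values from -1.61 (without the Fluidigm sum of clade C) to 3.70 for arf1 and from -8.10 to 0.20 (without s20566) for phc3, with 0.028 without the Fluidigm sum of clade A. With 2 sums per clade, the spread between the sums of a clade limits what can be called.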

Other observations

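The 18 cells that carry no clade expressed genes from both ends of the comparison. By the study's account such cells were immature, or mature without appreciable OR transcripts, so they are unlike the 29 cells compared. robo2 reached 100 counts in 10 of the 18, doc2b in 8 and lin7a in 7, and among the low genes hspa5 did so in 10, fezf1 in 3 and pcdh19 in 4. p4ha3 did so in 0 of the 18 and had at most 2.29 CPM.

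The labels call the 3 bulk libraries OMP positive cells, and the bulk sorts in the study's methods took cells positive for both OMP:RFP and an or111-7 reporter (IRES:GAL4 driving UAS:citrine), so these libraries are not a sample of all OSNs. In them fezf1 was at 112, 156 and 151 CPM and hspa5 at 677.98, 977 and 719 CPM. robo2 was at 75.4, 212 and 236 CPM, and p4ha3 at 0, 11.04 and 31.2 CPM. In bulk samples fewer cells of a type and less RNA per cell cannot be told apart.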
